A study of Mus musculus with 2 samples.

Results

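Astrocyte-like EGFP cells are the cells of these mouse brain tumors that carried transcripts of the tumor label EGFP together with transcripts of astrocyte genes. They were chosen by measured values, per cell barcode: at least 500 genes and under 20% mitochondrial UMIs, EGFP at 20 or more, the sum of Aqp4, Slc4a4 and Slc6a11 at 10 or more, the sum of the mitotic genes Mki67, Top2a, Ube2c, Aspm, Prc1 and Cenpf under 10, the sum of the microglial complement genes C1qa, C1qb and C1qc under 5, and no UMI of the T-cell genes Cd3d, Cd3e and Cd3g. A UMI is a molecular tag that counts a captured transcript, and each limit is in UMIs per 10000 mouse-gene UMIs of the cell. The rule took 616 of 32898 barcodes, 583 in tumor 1 and 33 in tumor 2, out of 28409 barcodes that passed the limits on genes and mitochondria. Among EGFP cells they were 6.28% in tumor 1 (exact 95% binomial interval 5.79 to 6.79) and 0.339% in tumor 2 (0.233 to 0.475), and these intervals cover counting error only.

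The series holds 2 single-cell RNA libraries, numbered 1 and 2 in the labels, each from the glioblastoma (GBM) of a C57BL/6 mouse aged 3 months. Both carry the model NPCTKO, in which progenitors of the embryonic neocortex received by electroporation a piggyBac transposon with a fluorescent label, luciferase, Cas9 and guides against tumor suppressors that include Trp53 and Nf1. Every animal thus carried all the edits together and no unedited brain was sampled. Per the study, 1 tumor grew in a Tek-Cre;Ai14 host, whose endothelial and blood lineages express tdTomato, and 1 in a Tbx18CreERT2/+;Ai14 host, whose mural cells do after tamoxifen. Which host belongs to which library is not given in the labels. With 1 library per host, effects of host, tumor and library cannot be told apart, and no test between tumors was made.

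Astrocytes clear glutamate and potassium from around synapses, supply neurons with lipid and lactate, and wrap blood vessels with end-feet rich in the water channel Aqp4. They arise from radial glia, in which Notch and BMP signals favor the astrocyte fate over the oligodendrocyte one. Gliomas often hold cells with astrocyte programs beside cells with programs of oligodendrocyte progenitors, and normal astrocytes also lie within and around such tumors.

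The libraries of tumors 1 and 2 held 282961884 and 295366782 mouse-gene UMIs. The median astrocyte-like EGFP cell had 16313 UMIs and 4351 genes in tumor 1, and 21537 UMIs and 4435 genes in tumor 2. The libraries shared 51 barcodes, of which 2 were astrocyte-like EGFP cells in tumor 1 and 0 in tumor 2. Levels of a gene are given as CPM, its UMIs per 1000000 UMIs of the summed cells. Of the targeted genes, Trp53 was at 57.3 and 25.5 CPM and Nf1 at 49.9 and 36.8 CPM in the astrocyte-like EGFP cells, and in counts of transcript ends these values do not show whether a guide had cut.

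EGFP transcripts were also found in cells that should not carry the label. T cells, taken as barcodes with Cd3 genes above 2, had a median EGFP of 8.44 and 9.84 per 10000 UMIs, and 22.8% and 19.6% of them were at 20 or more, in tumors 1 and 2. Cells with C1q genes at 50 or more had medians of 6.01 and 6.08, and 15.5% and 15.7% of them were at 20 or more. In the astrocyte-like EGFP cells, EGFP ran from 20.1 over a median of 41.1 to 358 in tumor 1, and from 21.7 over 107 to 744 in tumor 2. In both tumors the EGFP range of the astrocyte-like EGFP cells therefore overlapped with that of cells of other lineages. These shares do not show how far up the overlap reached. The weight of free EGFP RNA in the choice of cells was not tested.

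**Figure D1:**
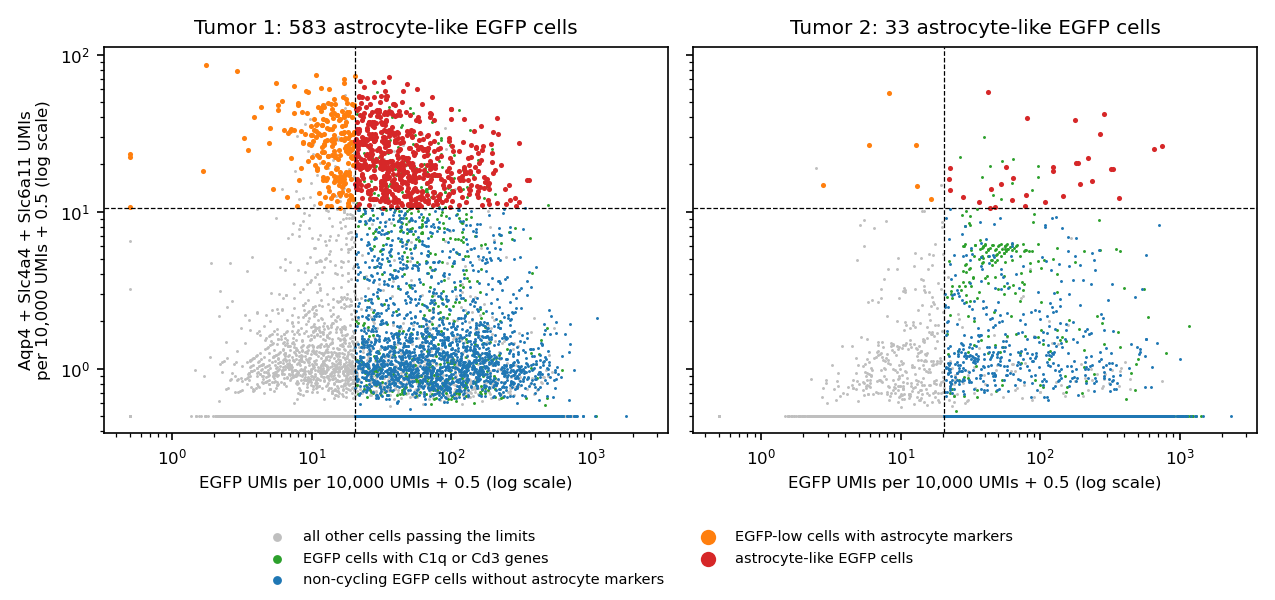
EGFP (horizontal axis) against the sum of Aqp4, Slc4a4 and Slc6a11 (vertical axis), both as UMIs per 10000 UMIs of the cell plus 0.5 on log scales, for the cells of each tumor. Red points are the 583 and 33 astrocyte-like EGFP cells, orange points EGFP-low cells with astrocyte markers (218 and 6), and dashed lines mark the limits of 20 and 10. In tumor 1 the red and orange points form a single cloud across the EGFP limit.

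Values just inside and just outside the limits were of like size. In tumor 1, the 85 cells with EGFP of 20 to 25 had 1603 CPM of the glutamate transporter Slc1a2, and the 84 cells with astrocyte markers and EGFP of 15 to 20 had 1387 CPM. The other glutamate transporter, Slc1a3, was at 2101 and 2062 CPM in these groups. At the limit on astrocyte markers, the 73 cells at 10 to 12 had 699.8 CPM of Slc1a2 and 1172 CPM of Slc1a3, and the 63 EGFP cells at 8 to 10 had 1025 and 1203 CPM. Neither limit marked a rise of these genes on its inner side beyond these values. In 27 cells of tumor 1 and 2 of tumor 2, only 1 of the 3 marker genes was seen, and these were shallow, with median UMI counts of 1037 and 2101.5.

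The name was checked on 10 astrocyte genes outside the rule: Gja1, Slc1a3, Aldoc, Gfap, Aldh1l1, Ntsr2, Acsbg1, Atp1b2, Fgfr3 and Mlc1. With every cell thinned to 2000 UMIs, the astrocyte-like EGFP cells showed a median of 4 of the 10 in both tumors, and 77.1% and 96.9% of them showed 3 or more. Thinning left out 37 and 1 cells with fewer UMIs. In non-cycling EGFP cells without astrocyte markers, 8.47% and 5.74% showed 3 or more, and in EGFP-low T cells 3.65% and 1.01%. EGFP-low cells with astrocyte markers were above the astrocyte-like EGFP cells, at 87.3% of 213 thinned cells in tumor 1 and 100% of 6 in tumor 2. Here and below, EGFP-low T cells are the 333 and 691 barcodes with EGFP under 20, any Cd3 UMI and C1q genes under 5. This class is wider than the T cells above and may include other cells with a stray Cd3 UMI. The name was therefore kept, and since these genes come from the cells that the rule chose, the shares are given as a description.

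Single-gene shares gave the same order. After thinning, Slc1a2, the main glutamate transporter of astrocytes, was seen in 65.8% of the astrocyte-like EGFP cells of tumor 1 (exact 95% interval 61.6 to 69.7) and in 71.9% in tumor 2 (53.3 to 86.3). It was seen in 15.9% and 7.37% of non-cycling EGFP cells without astrocyte markers, and in 8.81% and 0.868% of EGFP-low T cells, whose median depths were 12357 and 18255 UMIs. Without thinning, Slc1a2 was seen in 88.3% and 90.9% of the astrocyte-like EGFP cells. Gfap, the intermediate filament of astrocytes, was seen after thinning in 40.3% and 56.2%, against 5.17% and 7.96% of EGFP-low T cells. Olig1, a transcription factor of the oligodendrocyte lineage, was seen in 64.7% (60.5 to 68.7) and 40.6% (23.7 to 59.4), below the 80.8% and 66.6% of the EGFP cells without astrocyte markers and, in tumor 1, above the 28.9% of EGFP-low T cells. In tumor 2 the interval for Olig1 overlapped with that of EGFP-low T cells, at 27.4% (24.1 to 30.8).

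To ask how these cells differed from the rest of the labeled tumor, UMIs were summed per tumor and cell class, and the sums entered a quasi-likelihood test in edgeR with the tumor as a block and Benjamini-Hochberg adjustment over all genes, written edgeR adjusted p below. Fold changes are on the log2 scale of that fit, with their standard errors, and n = 2 tumors. The genes of the rule were left out of every count, and genes that vary together with them are not independent of the choice of cells. Against all 18416 other EGFP cells, 762 of 15202 genes passed the test (5.01%), 398 higher (2.62%) and 364 lower (2.39%) in the astrocyte-like EGFP cells. Of these, 760 had the same direction by plain CPM in both tumors. The count was 0 without the block, 42 with tumor 1 left out and 1 with tumor 2 left out. With a tumor left out, each compared class is a single sum, which is assumed to vary like the sums of the other classes kept in the fit. At an unadjusted p under 0.05, 3316 genes passed with the block and 1631 without it. Mitotic genes were lower by the choice of cells, since the comparator holds cycling cells: of 20 further G2 and M phase genes, 19 were lower, among them Nusap1, a spindle protein, by -3.57 ± 0.43 (log2).

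The closer comparator was the 10007 non-cycling EGFP cells without astrocyte markers, 5673 in tumor 1 and 4334 in tumor 2, which met the same limits on EGFP, mitotic, C1q and Cd3 genes. Here 1324 of 15839 genes passed (8.36%), 750 higher (4.74%) and 574 lower (3.62%), and 1300 of them had the same direction by CPM in both tumors. The count was 2 without the block, 294 with tumor 1 left out and 110 with tumor 2 left out. With the UMIs of each cell split into 2 random parts, so that 1 part chose the cells and the other was tested, 938 genes passed, of which 799 were among the 1324. The median log2 fold change over all genes was -0.15. Of the 24 genes named below by size of change, 15 still passed with tumor 1 left out, 10 with tumor 2 left out and 0 without the block, each in the same direction. All values that follow compare with this class.

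Genes that define astrocytes were higher almost throughout. Of 20 astrocyte identity genes, 18 were higher and 0 lower, with a median log2 fold change of 3.06. With tumor 1 left out 9 of them passed and with tumor 2 left out 6, at medians of 3.26 and 3.06, so the size of the change was kept where the calls were not. Slc1a2 was at 1356 and 836 CPM in the astrocyte-like EGFP cells of tumors 1 and 2, against 104 and 35.7 CPM in the comparator (log2 fold change 4.22 ± 0.88, edgeR adjusted p = 0.015). Aldh1l1, a folate enzyme used as a marker of astrocytes, was at 31.5 and 189.8 CPM against 2.4 and 2.55 CPM (5.32 ± 0.85, edgeR adjusted p = 0.00515). Gja1, which encodes the gap junction protein connexin 43, was at 98.7 and 99.2 CPM against 6.22 and 2.62 CPM (4.61 ± 0.68, edgeR adjusted p = 0.00342). For each of these genes both tumors' values lay above both comparator values, and Aldh1l1 was the most uneven between the tumors.

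**Figure D2:**
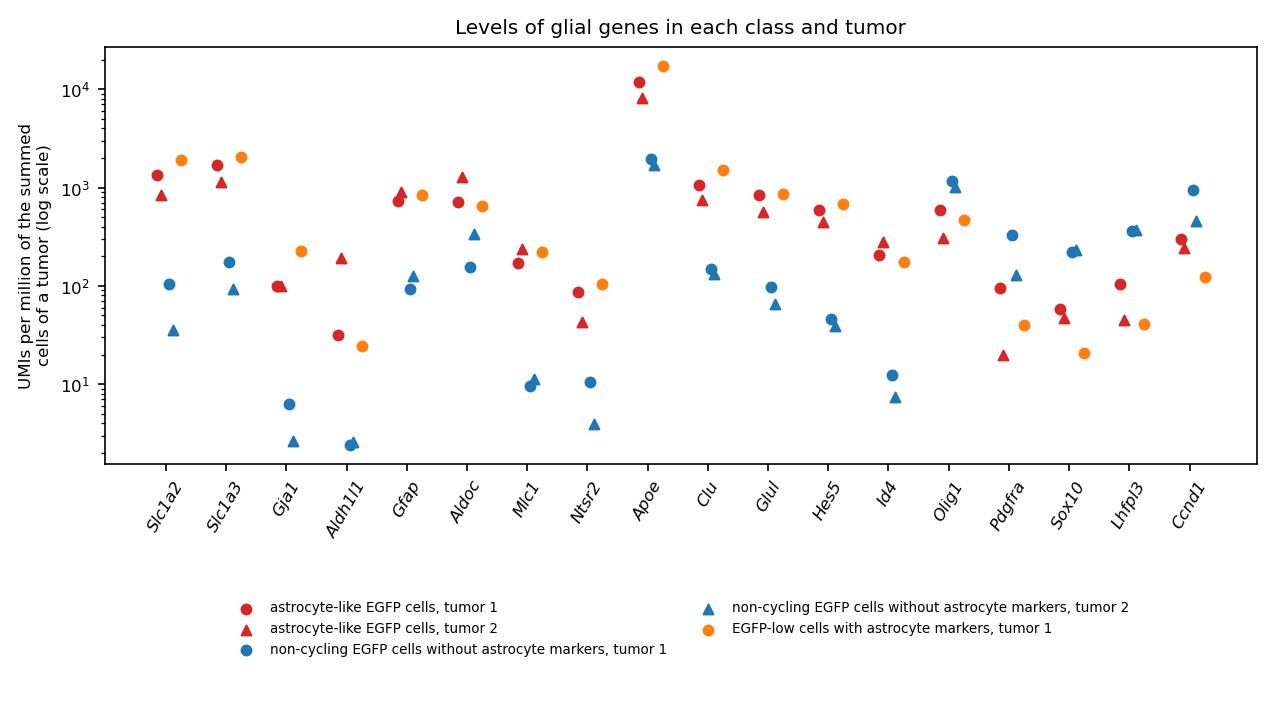
Summed level of 18 glial genes, in CPM on a log scale (vertical axis), in the astrocyte-like EGFP cells (red), non-cycling EGFP cells without astrocyte markers (blue) and EGFP-low cells with astrocyte markers (orange, tumor 1). Circles are tumor 1 and triangles tumor 2. From Slc1a2 to Id4 the red points lie above the blue ones, and for Olig1, Pdgfra, Sox10, Lhfpl3 and Ccnd1 they lie below.

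Gfap was at 727 and 894 CPM against 93.5 and 127 CPM (2.83 ± 0.38, edgeR adjusted p = 0.00247). S100b, a calcium-binding protein of astrocytes and of oligodendrocyte progenitors, went the other way without passing, at 335 and 429 CPM against 702 and 849 CPM (-1.06 ± 0.41, edgeR adjusted p = 0.13). Slc7a10, an amino acid transporter, was the other identity gene that did not pass, at 10.7 and 9.91 CPM against 4.09 and 1.76 CPM. Of the 20 identity genes, S100b alone was below the comparator in CPM.

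Of 13 genes of glutamate and GABA handling, 10 were higher and 1 lower (median 2.08). Glul, the enzyme that turns glutamate into glutamine, was at 832 and 565 CPM against 97 and 65.3 CPM (3.03 ± 0.56, edgeR adjusted p = 0.00853). Slc7a11, the cystine-glutamate exchanger, was at 162 and 86.4 CPM against 8.54 and 13.1 CPM (3.66 ± 0.77, edgeR adjusted p = 0.0152). The lower gene was Slc38a1, a glutamine importer of neurons, at 42.3 and 5.67 CPM against 110.2 and 46.4 CPM (-1.53). With tumor 1 left out 3 genes of this list were higher and 1 lower, and with tumor 2 left out 1 was higher.

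Of 15 genes for ions, water and gap junctions, 10 were higher and 0 lower (median 1.94). Mlc1, a membrane protein of end-feet, was at 171 and 238 CPM against 9.52 and 11.3 CPM (4.19 ± 0.74, edgeR adjusted p = 0.00714). Car2, a carbonic anhydrase, was at 288 and 442 CPM against 24.3 and 13.5 CPM (4.44 ± 0.58, edgeR adjusted p = 0.00235). With tumor 1 left out 5 genes were higher and with tumor 2 left out 4. The potassium channel Kcnj10 rose less, by 1.45, from 97.9 and 47.6 CPM in the comparator to 272 and 142 CPM.

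In the adhesion complex that holds Aqp4 at end-feet most genes did not pass, though the share that did exceeded the 8.36% of all genes. Of 11, 2 were higher, 1 lower and 8 did not pass (median 0.38), and with either tumor left out 0 passed in edgeR, with 4 and 5 at an unadjusted p under 0.05. Of the higher genes, Itga6, a laminin receptor, was at 154 and 55.2 CPM against 19.4 and 8.26 CPM (2.76). The lower gene was Sgcd, a sarcoglycan (-1.92). The dystroglycan gene Dag1 was at 162 and 118 CPM against 126 and 81.7 CPM (0.38, edgeR adjusted p = 0.42).

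Of 14 lipid genes, 11 were higher and 0 lower (median 1.81), with 4 higher when tumor 1 was left out and 2 when tumor 2 was. Apoe, the main lipid carrier of the brain, was at 11818 and 8103 CPM against 1960.0 and 1686 CPM (2.32 ± 0.35, edgeR adjusted p = 0.00375). Clu, another apolipoprotein, was at 1052 and 741 CPM against 148 and 131 CPM (2.56), and Lcat, which esterifies cholesterol, at 120.3 and 198 CPM against 10.5 and 16.4 CPM (3.45). The lipid droplet protein Plin2 did not pass, at 29.2 and 59.5 CPM against 32.1 and 85 CPM (-0.34).

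Of 20 genes of oxidative and glucose metabolism, 9 were higher and 0 lower (median 1.02), and 4 were higher with either tumor left out. They included Glud1, glutamate dehydrogenase, at 368 and 712 CPM against 71.8 and 75.9 CPM (2.80), and Pygb, a glycogen phosphorylase, at 87.3 and 52.4 CPM against 14 and 9.25 CPM (2.54). Aldoc, the brain aldolase, was at 713 and 1286 CPM against 156 and 335 CPM (2.00). The lactate dehydrogenase gene Ldha did not pass, at 173 and 265 CPM against 260.0 and 525 CPM. Of 13 hypoxia and glycolysis genes, 1 was higher, Egln3, a hypoxia-induced prolyl hydroxylase, at 15.8 and 18.4 CPM against 4.81 and 10.7 CPM (1.34).

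**Figure D3:**
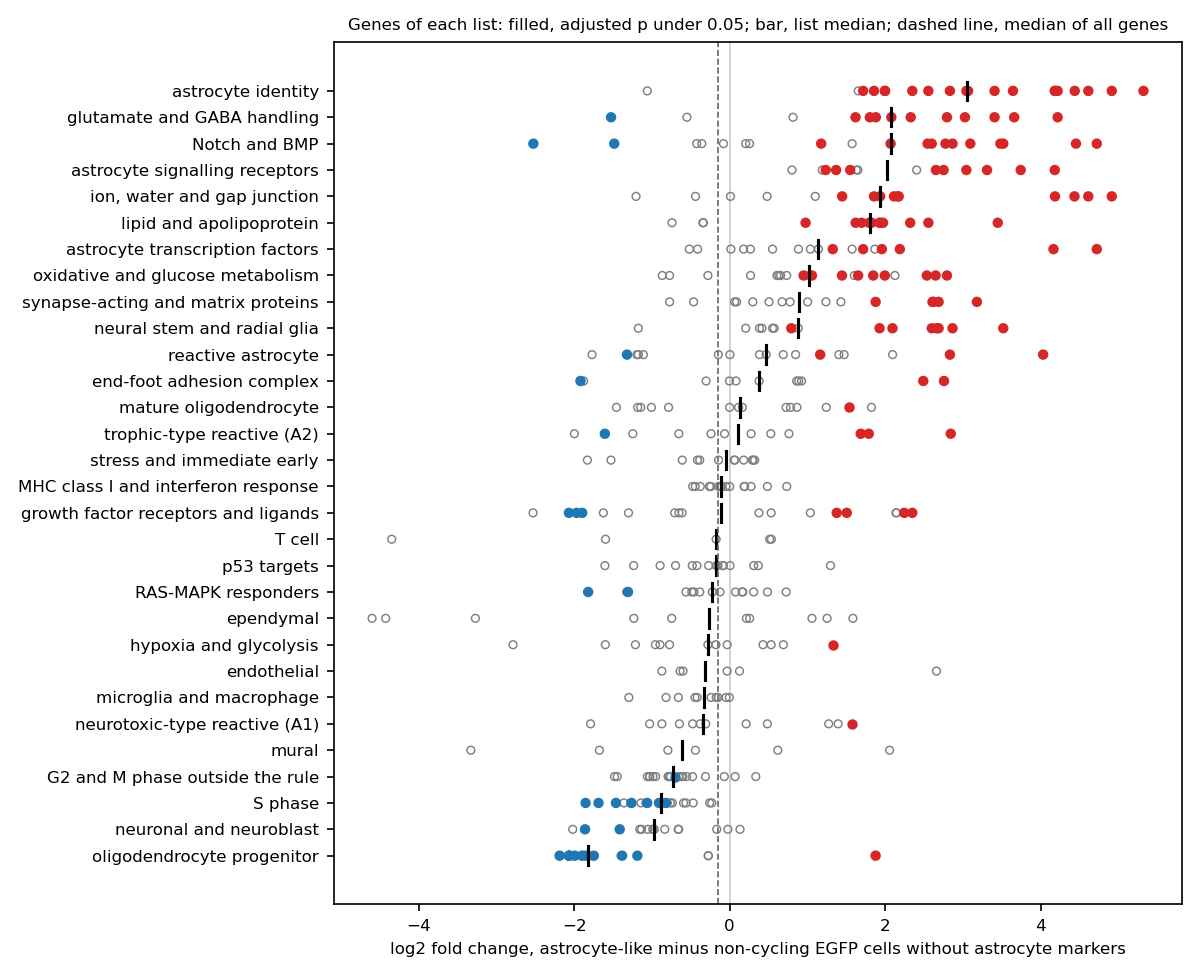
Log2 fold change (horizontal axis) of the genes of 30 lists (vertical axis), astrocyte-like EGFP cells minus non-cycling EGFP cells without astrocyte markers. Filled red and blue points passed the edgeR test at an adjusted p under 0.05, open points did not, bars are list medians and the dashed line is the median of all genes at -0.15. Identity, transport, receptor, Notch and lipid lists lie to the right, and oligodendrocyte progenitor genes lie to the left except Bcan.

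Receptors by which astrocytes sense transmitters were higher in 9 of the 14 tested, and 0 were lower (median 2.03). S1pr1, a sphingosine phosphate receptor, was at 244 and 120.4 CPM against 13.6 and 6.01 CPM (4.18 ± 0.35, edgeR adjusted p = 0.000275). Grm3, a metabotropic glutamate receptor, was at 28.1 and 24.1 CPM against 2.24 and 1.18 CPM (3.75), and Gabbr2, a subunit of the GABA-B receptor, at 101 and 36.8 CPM against 19.7 and 3.82 CPM (2.65). All 14 fold changes were above 0, also with either tumor left out, although only 4 and 2 then passed.

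Notch and BMP genes split by their role. Of 19 genes, 11 were higher and 2 lower (median 2.07), and with either tumor left out the median was 2.32 and 1.92 with 6 and 3 genes higher. The higher ones were receptors and targets. Notch3 was at 26.2 and 19.8 CPM against 1.6 and 0.512 CPM (4.46 ± 0.65, edgeR adjusted p = 0.00339), and Hes5, a repressor that Notch induces, at 590.4 and 445 CPM against 45.7 and 39.3 CPM (3.52 ± 0.58, edgeR adjusted p = 0.0055). Id4, an inhibitor of basic helix-loop-helix factors that BMP signals induce, was at 204 and 279 CPM against 12.3 and 7.37 CPM (4.72 ± 0.70, edgeR adjusted p = 0.00358). Bmpr1b, a BMP receptor, was at 58 and 35.4 CPM against 4.41 and 3.2 CPM (3.48). The lower ones were the ligands Dll3, at 11.1 and 5.67 CPM against 51.8 and 96.8 CPM (-2.52, edgeR adjusted p = 0.0117), and Dll1, at 5.05 and 1.42 CPM against 12.8 and 7.44 CPM (-1.48, edgeR adjusted p = 0.0332). Jag1, another ligand gene, was at 15.5 and 5.67 CPM against 20.3 and 11.1 CPM and did not pass. The Dll3 value of tumor 2 rests on 4 UMIs.

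Of 17 transcription factors of astrocytes, 6 were higher and 0 lower (median 1.14), with 3 and 1 higher when tumor 1 or tumor 2 was left out. Sox9, which sets up the glial fate, was at 372 and 171 CPM against 145 and 38.8 CPM (1.72 ± 0.46, edgeR adjusted p = 0.0416). Hopx, a homeodomain protein of radial glia and astrocytes, was at 241 and 1629 CPM against 31.9 and 55.9 CPM (4.17 ± 0.76, edgeR adjusted p = 0.00847), so the astrocyte-like EGFP cells of the tumors stood further apart from each other than the comparators did. The gliogenic factors Nfia, Nfib and Nfix did not pass, with log2 fold changes of 0.27, 0.02 and 0.18. Of 15 genes of neural stem cells and radial glia, 8 were higher and 0 lower (median 0.88), with 3 and 0 higher in the same fits. Pax6 was at 42.8 and 35.4 CPM against 8.89 and 3.44 CPM (2.66), while Nes, the filament gene used as a stem cell marker, was at 30.7 and 35.4 CPM against 77 and 58.6 CPM (-1.17, edgeR adjusted p = 0.084). Sox2 was at 438 and 205 CPM against 204 and 265 CPM, higher in tumor 1 and lower in tumor 2, and did not pass.

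Genes of oligodendrocyte progenitors had the lowest median of the lists. Of 16 genes, 10 were lower and 1 higher (median -1.82). Pdgfra, the growth factor receptor of these progenitors, was at 96 and 19.8 CPM against 329 and 128 CPM (-2.07 ± 0.39, edgeR adjusted p = 0.00961). Sox10, a factor of the oligodendrocyte lineage, was at 58.2 and 46.7 CPM against 223 and 231 CPM (-2.06 ± 0.48, edgeR adjusted p = 0.0252), and Olig1 was at 588 and 305 CPM against 1165 and 1008 CPM (-1.38 ± 0.29, edgeR adjusted p = 0.016). The higher gene was Bcan, the matrix proteoglycan brevican, which astrocytes also make, at 777 and 800.3 CPM against 273 and 169 CPM (1.88). With tumor 1 left out 6 genes were lower, and with tumor 2 left out 0, at medians of -2.53 and -1.64.

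These levels were set against the background of free RNA. In EGFP-low T cells, Olig1 was at 367 and 268 CPM and Pdgfra at 62.2 and 40.6 CPM in tumors 1 and 2. This class may include other cells with a stray Cd3 UMI, so it is a rough measure of the background. The Olig1 level of the astrocyte-like EGFP cells was above this background in tumor 1 and close to it in tumor 2, and their Pdgfra level was above it in tumor 1 and below it in tumor 2. Of 14 mature oligodendrocyte genes, 1 was higher and 0 lower: Trf, the iron carrier transferrin, at 119.7 and 9.91 CPM against 32.8 and 9.98 CPM, a difference seen in tumor 1 alone (1.54, edgeR adjusted p = 0.0455). Without tumor 1 the fitted value for Trf was -0.18, and the median of the 14 genes was -2.41, against 0.14 with both tumors and 0.77 without tumor 2.

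The limit on mitotic genes was the same in the astrocyte-like EGFP cells and in this comparator. With this limit shared, 7 of 20 S phase genes were lower and 0 higher (median -0.88). Among them was the helicase subunit Mcm6, at 12.7 and 7.08 CPM against 43.9 and 35.8 CPM (-1.85). All 20 fold changes were below 0, also with either tumor left out, when 0 genes passed in edgeR and 12 and 10 had an unadjusted p under 0.05. Ccnd1, the G1 cyclin, was at 301 and 245 CPM against 942 and 457 CPM (-1.31 ± 0.29, edgeR adjusted p = 0.0184), and Phlda1, like Ccnd1 a gene induced by RAS signals, at 128 and 118 CPM against 336 and 550.3 CPM (-1.82 ± 0.22, edgeR adjusted p = 0.00179). These were 2 of 15 RAS-MAPK responders, and the other 13 did not pass. With either tumor left out, 1 of the 15 was lower. Of 15 p53 targets, 0 passed in edgeR in either direction, 2 had an unadjusted p under 0.05, and 1, the death receptor gene Fas, passed in DESeq2. Of 14 genes of neurons and neuroblasts, 2 were lower, the synaptic gene Syt1 (-1.86) and the tubulin regulator Stmn1 (-1.41), and 0 higher.

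Of 18 growth factor receptor and ligand genes, 4 were higher and 3 lower, and with tumor 1 or tumor 2 left out 1 and 0 were higher. The FGF receptor genes rose. Fgfr3 was at 118 and 60.9 CPM against 26.7 and 9.5 CPM (2.35 ± 0.30, edgeR adjusted p = 0.00227), and Fgfr2 and Fgfr1 rose by 2.25 and 1.51. Ntrk2, a neurotrophin receptor, rose by 1.38. Pdgfra, Erbb3 (-1.97) and the ligand Bmp4 (-1.90) fell. Egfr, often amplified in human glioblastoma, was at 54.2 and 22.7 CPM against 18.1 and 2.01 CPM, and its change did not pass (2.15 ± 0.85, edgeR adjusted p = 0.139).

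Most reactive and immune genes did not pass the test. Over all genes 8.36% passed, a share that the reactive astrocyte and trophic lists exceeded and the immune list did not. Of 17 reactive astrocyte genes, 3 were higher and 1 lower (median 0.47), and with tumor 1 or tumor 2 left out 0 and 1 were higher. Vim was at 725 and 1820.1 CPM against 574 and 1266 CPM (0.38, edgeR adjusted p = 0.4), and the chemokine gene Cxcl10 at 558 and 1086 CPM against 219 and 698 CPM (0.85, edgeR adjusted p = 0.441), both without passing. Besides Gfap, the higher genes were Aspg, an asparaginase (4.03), and Timp1, a protease inhibitor (1.17), both at low levels. The lower gene was Cp, ceruloplasmin (-1.32). Of 12 genes each of the neurotoxic and trophic reactive types, 1 was higher and 0 lower, and 3 were higher and 1 lower. Of 16 genes of MHC class I and the interferon response and of 12 stress and immediate early genes, 0 passed in edgeR or DESeq2, with 0 and 1 at an unadjusted p under 0.05 in edgeR and list medians of -0.11 and -0.04.

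Proteins that astrocytes secrete to synapses and matrix were higher in 5 of 16 tested and lower in 0 (median 0.89), with 2 and 0 higher when tumor 1 or tumor 2 was left out. Sparcl1, a synapse-inducing protein also called hevin, was at 2034 and 3072 CPM against 257 and 285 CPM (3.18 ± 0.46, edgeR adjusted p = 0.00339). Ncan, the proteoglycan neurocan, was at 817 and 693 CPM against 223 and 72.3 CPM (2.62), and Gpc4, a glypican that recruits glutamate receptors, at 33.8 and 14.2 CPM against 5.75 and 1.6 CPM (2.61). The thrombospondin genes Thbs1, Thbs2 and Thbs4 did not pass.

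By the size of the change alone, the 12 most increased genes also held genes outside most lists. Slc39a12, a zinc transporter, changed most, at 42.4 and 28.3 CPM against 1.16 and 0.28 CPM (5.79 ± 0.83, edgeR adjusted p = 0.00335). Gabrb1 and Gabra4, subunits of the GABA-A receptor, rose by 4.76 and 4.73, with Gabrb1 at 217 and 244 CPM against 15.7 and 5.63 CPM. Agt, the precursor of angiotensin, was at 214 and 215 CPM against 7.53 and 9.82 CPM (4.44), and Pla2g7, a phospholipase that degrades platelet-activating factor, at 380.3 and 319 CPM against 17.2 and 15.7 CPM (4.36). Fam20a, 2900052N01Rik and the lipogenic regulator Thrsp completed the 12, with Aldh1l1, Id4, Gja1 and Car2 given above. Thrsp was at 37.9 and 251 CPM in tumors 1 and 2 against 6.71 and 5.68 CPM (4.54).

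The 12 most decreased genes held matrix genes and genes of progenitors. Col5a2, a fibrillar collagen gene, was at 6.15 and 2.83 CPM against 32.3 and 24.6 CPM (-2.72 ± 0.50, edgeR adjusted p = 0.00838), and the matrix genes Col18a1 and Matn2 had log2 fold changes of -2.49 and -2.47. Tac1, the precursor of substance P, was at 3.78 and 4.25 CPM against 24.2 and 27.2 CPM (-2.66). Lhfpl3, a marker of oligodendrocyte progenitors, was at 105 and 45.3 CPM against 363 and 367 CPM (-2.19). The remaining genes were Dll3, Cdkn1c, Ajap1, Bricd5, Klk8, Dmrtb1 and Bok, with changes of -2.52 to -2.17. In tumor 2 most of these rest on few UMIs in the 33 cells, where 3 UMIs make 4.25 CPM.

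Markers of other cell types were at low levels. Summed over 10 microglia and macrophage markers, the astrocyte-like EGFP cells had 149.7 and 234 CPM, against 154 and 323 CPM in the comparator, and 0 of the 10 passed in edgeR or DESeq2 or had an unadjusted p under 0.05 in edgeR. Over 5 T-cell markers they had 3.08 and 2.83 CPM, with 1 and 4 of the 5 at 0 in tumors 1 and 2. Endothelial markers summed to 43.9 and 76.5 CPM against 50.6 and 21.8 CPM, with Tek and Esam at 0 in tumor 2, mural markers to 20.6 and 24.1 CPM against 29.7 and 21.7 CPM, and choroid plexus markers to 0.71 and 0 CPM against 1.57 and 1.76 CPM. The 10 ependymal markers summed to 49.5 and 96.3 CPM against 53.1 and 99.1 CPM, with Tmem212, Ccdc153 and Pifo at 0 in both tumors. The mature oligodendrocyte markers summed to 946 and 528 CPM against 1006 and 1191 CPM, and the neuronal markers to 1303 and 606 CPM against 2418 and 1622 CPM. Mitochondrial shares were slightly higher, at medians of 5.93% and 6.42% of UMIs against 4.97% and 4.63%, and their part in the results was not tested.

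The astrocyte-like EGFP cells were not uniform among themselves. In tumor 1, 432 of 583 had UMIs of all 3 marker genes of the rule, and Slc4a4 was the highest of the 3 in 395, Aqp4 in 179 and Slc6a11 in 9. In tumor 2, Aqp4 was the highest in 18 and Slc4a4 in 15 of 33. The marker genes varied with different partners across the 506 cells of tumor 1 with at least 5000 UMIs. Aqp4, the water channel, rose and fell with Slc1a2 (Spearman rho 0.53), Gfap (0.49), Clu (0.49) and Gja1 (0.45). Slc4a4, the bicarbonate cotransporter, went with Slc1a3 (0.48) and the GABA transporter Slc6a11 (0.33), and hardly with Aqp4 (0.05) or Slc1a2 (-0.03). The partners were not the same in the 26 such cells of tumor 2. There Slc4a4 went with Slc1a2 (0.58) and Slc1a3 (0.36), and hardly with Slc6a11 (0.09). Aqp4 went with Clu (0.42), and less with Slc1a2 (0.17), Gfap (0.17) and Gja1 (0.10). The rule's limit on the sum of Aqp4, Slc4a4 and Slc6a11 also shapes the correlations among these 3 genes. All are descriptions over cells within a library, which share its depth and free RNA. In tumor 1, depth itself was related to Slc4a4 (-0.37), and Olig1 went against Apoe (-0.40) and Slc1a2 (-0.39).

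EGFP level was a further axis. In tumor 1, cells with astrocyte markers were 218 below EGFP of 20, 281 at 20 to 40, 218 at 40 to 100 and 84 at 100 or more. Over these steps Vim was at 381, 419, 636 and 1495 CPM, Ccnd1 at 124, 198, 363 and 403 CPM, and S100b at 118, 201, 411 and 478 CPM. Gja1 was at 225, 111, 85.3 and 97.4 CPM, and Slc1a2 at 1921, 1235, 1395 and 1532 CPM. In tumor 1, cells with more EGFP thus had more of the filament, cyclin and S100b transcripts, and cells below the limit had the most Gja1 and Slc1a2. Median depth was also uneven, at 13316, 14218, 14834 and 31446 UMIs, and its part was not tested. In tumor 2 the steps held 6, 5, 11 and 17 cells. The order of Vim, Ccnd1 and S100b was not the same there, with Vim at 4488, 2259, 1325 and 1985 CPM, Ccnd1 at 764, 119, 294 and 236 CPM and S100b at 742, 879.9, 418 and 394 CPM. Gja1 was at 251, 47.6, 119 and 95.7 CPM and Slc1a2 at 1998, 761, 712 and 894 CPM. Both were thus highest below the limit in tumor 2 also, in 6 cells.

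Cells with astrocyte markers but EGFP under 20 were the nearest class, chosen by the same limits apart from EGFP. With 6 such cells in tumor 2, no test was made and the values are from tumor 1. Of 3291 genes at 50 CPM or more in either class, 5 differed by at least 4-fold (0.152%), all higher in the astrocyte-like EGFP cells. The count was 16 with these limited to EGFP of 50 or more and 42 at 100 or more. The 5 were Dct, a melanin synthesis enzyme, at 177 against 6.34 CPM, Scg2, a secretogranin, at 168 against 14.3 CPM, Npy, neuropeptide Y, at 63.0 against 8.54 CPM, Crym, a thyroid hormone binding protein, at 426 against 79.4 CPM, and Matn4, a matrilin of progenitors, at 96.0 against 20.9 CPM. Several of these came from few cells: 85.2% of the Dct UMIs were in 1 cell, 47 of 583 cells had Scg2, and 96.7% of the Crym UMIs lay in the tenth of cells with most. Luciferase, a transposon transcript that the rule did not use, gave a further comparison. It was seen in 67.4% of the astrocyte-like EGFP cells, in 66.7% of the EGFP cells without astrocyte markers, in 34.9% of the EGFP-low cells with astrocyte markers and in 17.7% of EGFP-low T cells, at 175, 163, 51.3 and 23.6 CPM and at median depths of 16313, 18521, 13316 and 12357 UMIs. The host reporter tdTomato was at 1.97 CPM in the astrocyte-like EGFP cells of tumor 1 and at 11.6 CPM in EGFP-low T cells. In tumor 2 it was at 0 and 0.543 CPM in these classes. In EGFP-low cells with C1q genes at 5 or more it was at 11.3 CPM in tumor 1 and 0.453 CPM in tumor 2. The host of each library was not tested from these values. In tumor 2, the fused Cas9 and luciferase transcript was seen in 24.2% of the astrocyte-like EGFP cells (8 of 33), in 7.84% of the EGFP cells without astrocyte markers and in 9 of 691 EGFP-low T cells, at 34.0, 4.60 and 0.543 CPM and at median depths of 21537, 16785 and 18255 UMIs, and the difference was not tested.

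Between tumors, 112 of 3516 genes at 50 CPM or more differed by at least 4-fold in the astrocyte-like EGFP cells (3.19%), 67 higher in tumor 1 (1.91%) and 45 higher in tumor 2. In EGFP cells without astrocyte markers 53 of 3550 did (1.49%), 24 of them higher in tumor 1 (0.676%), and 17 genes differed the same way in both classes, 15.2% of the first list and 32.1% of the second. Among the latter was Wfdc12, a secreted protease inhibitor, at 0.71 and 62.3 CPM in the astrocyte-like EGFP cells of tumors 1 and 2 and at 2.58 and 479 CPM in the others. Other genes were past 4-fold in the astrocyte-like EGFP cells and short of it in the others. Fgfbp3, an FGF-binding protein, was at 20.3 CPM (exact 95% Poisson interval 17.9 to 22.98) in tumor 1 and 389.5 CPM (345 to 438) in tumor 2, against 10.0 and 13.1 CPM in EGFP cells without astrocyte markers. Npy was at 63.0 CPM (58.7 to 67.5) and 1139 CPM (1061 to 1220), against 92.9 and 88.5 CPM, and was seen in 113 of 583 and 17 of 33 cells. In tumor 2, 3 cells held 54.55% of the Fgfbp3 UMIs, and 3 cells held 56.0% of the Npy UMIs. Tnr, a matrix protein of oligodendrocyte progenitors, was at 103 CPM in tumor 1 and 7.08 CPM in tumor 2, against 274 and 83.6 CPM, so it was higher in tumor 1 in both classes. With 1 library per tumor these are values of 2 libraries, and the difference between classes was not tested.

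Chromosome-wide expression was taken as a readout that the rule did not use. For each of 19 autosomes, the median log2 ratio of CPM to EGFP-low T cells was taken over 5461 genes in tumor 1 and 4845 in tumor 2, and the profile was set against that of cycling EGFP cells of the same tumor. Pearson's r was 0.63 and 0.59 for the astrocyte-like EGFP cells and 0.94 and 0.97 for EGFP cells without astrocyte markers, as a description over autosomes that share libraries and reference. For EGFP-low cells with astrocyte markers of tumor 1 it was 0.43. Within the astrocyte-like EGFP cells of tumor 1 it was 0.40 at EGFP of 20 to 40, 0.63 at 40 to 100 and 0.61 at 100 or more. Their profile was set beside that of the EGFP-low cells with astrocyte markers with r of 0.88 in all and of 0.96, 0.91 and 0.24 over the same steps. This order depended on the genes and the tumor. For genes at 100 CPM or more in tumor 1, r with the cycling cells was 0.60, 0.54 and 0.38 over the steps, and 0.58 with the EGFP-low cells with astrocyte markers at EGFP of 100 or more. For the same genes in tumor 1, r with the cycling cells was 0.57 for all astrocyte-like EGFP cells. It was 0.56 for EGFP-low cells with astrocyte markers, so the gap between these classes was not kept. In tumor 2, r was 0.62 with the cycling cells and 0.37 with the 6 EGFP-low cells with astrocyte markers at EGFP of 20 to 40 (5 cells), and 0.52 and 0.65 at 100 or more (17 cells). With EGFP-low C1q cells as the reference, r with the cycling cells was 0.82 and 0.49 for the astrocyte-like EGFP cells. With this reference, EGFP-low cells with astrocyte markers of tumor 1 had 0.75. EGFP-low T cells, a class chosen by any Cd3 UMI, had 0.71 and 0.84. DNA was not measured, and a median over a chromosome's genes also moves with the cell type.

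**Figure D4:**
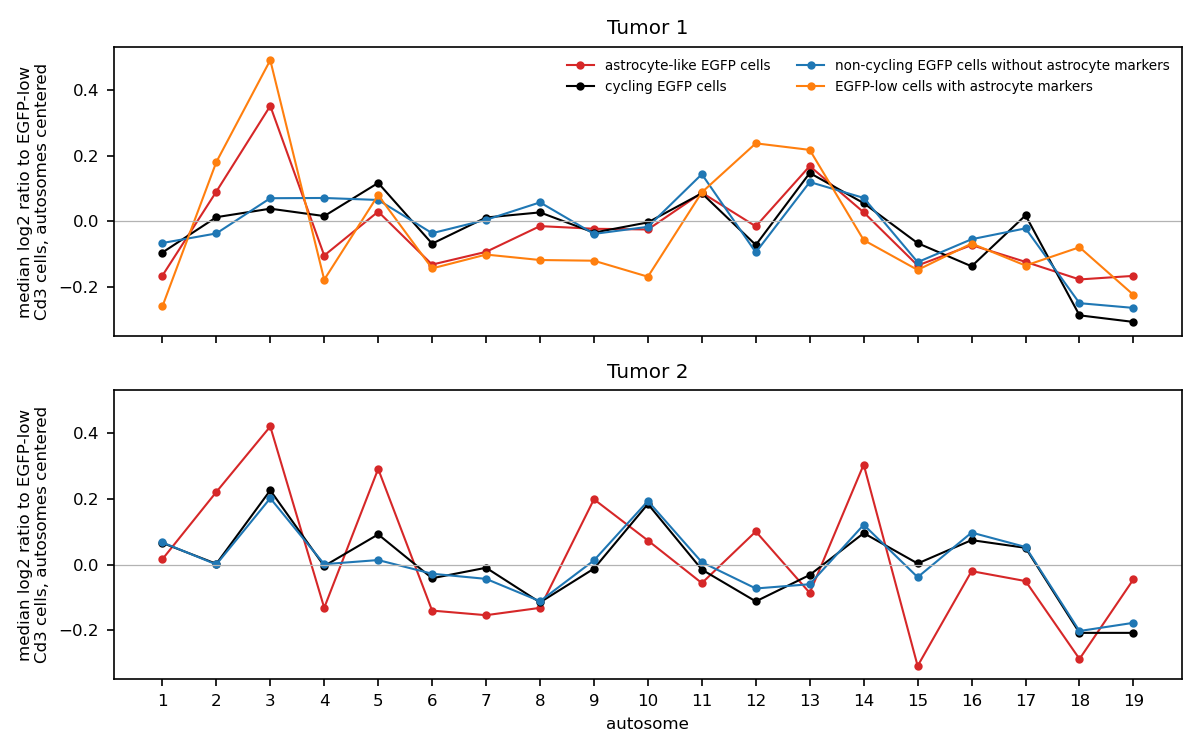
Median log2 ratio of expression to EGFP-low T cells (vertical axis), centered over the autosomes (horizontal axis), for tumor 1 (upper panel) and tumor 2 (lower panel). Lines are astrocyte-like EGFP cells (red), cycling EGFP cells (black), EGFP cells without astrocyte markers (blue) and, in tumor 1, EGFP-low cells with astrocyte markers (orange). Black and blue lines run close together, and the red line departs from them most at chromosome 3 in tumor 1. There the red line is at 0.35 and the orange line is higher still, at 0.49.

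A group of neighboring genes on chromosome 3 set a few cells apart. The window, chosen after the values were seen, holds 12 genes from Zmat3 to Dnajc19 between 32.3 and 34.2 Mb of the mouse build GRCm38. In 26 of the 583 astrocyte-like EGFP cells of tumor 1 (4.46%), the 12 genes made up 80 or more of 10000 UMIs, against a median of 15.9. Since these 12 genes chose the cells, a rise within the window follows in part from the choice. Gnb4, a G protein subunit, was at 2294 CPM in these 26 cells and at 212 CPM in the other 557. Ndufb5, a subunit of respiratory complex I, was at 4093 and 663 CPM, Mfn1 was 7.35-fold and Fxr1 6.11-fold higher, while Zmat3 at the edge was at a ratio of 0.69. Of genes beyond the window, Sec62, Skil and Atp11b were at ratios of 0.76, 0.34 and 0.57, while Sox2 and Anxa5 were at 3.30 and 2.80. Gm20515, which lies between Dnajc19 and Sox2, was at 1.25. In EGFP cells without astrocyte markers of tumor 1, split at the same 80, Gm20515 and Sox2 were at 5.89 and 5.30 and Anxa5 at 0.80. In that class the rise thus went past the end of the window to Sox2. The median EGFP of the 26 cells was 145 against 39.8 in the others, and their median depth 30138 against 16118 UMIs.

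The same rise was seen in 93 of 5673 EGFP cells without astrocyte markers (1.64%) and in 32 of 1416 cycling EGFP cells (2.26%) of tumor 1. It was seen in 0 of 218 EGFP-low cells with astrocyte markers, which allows a share of up to 1.38% and had 45.4 as the highest value. In tumor 2 it was seen in 0 of 33 astrocyte-like EGFP cells, which allows up to 9.09%, and the highest was at 21.7. Of the larger classes of tumor 2, 0 of 4334 EGFP cells without astrocyte markers showed it, with 35.8 as the highest value. The same held for 0 of 850 cycling EGFP cells, with 37.6 as the highest. In the 26 cells, Slc1a2 and Gfap were at ratios of 0.91 and 0.98 to the other astrocyte-like EGFP cells, while Slc1a3 and Aqp4 were at 0.66 and 0.46. Crym was at 3259 against 245 CPM, Vim at 2133 against 635 CPM, Itgb5, an integrin, at 531 against 51.6 CPM, Olig1 at 252 against 609.5 CPM and Cxcl10 at 64.4 against 589 CPM. These values are a description with no test, and whether the genes are present in more copies was not measured.

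**Figure D5:**
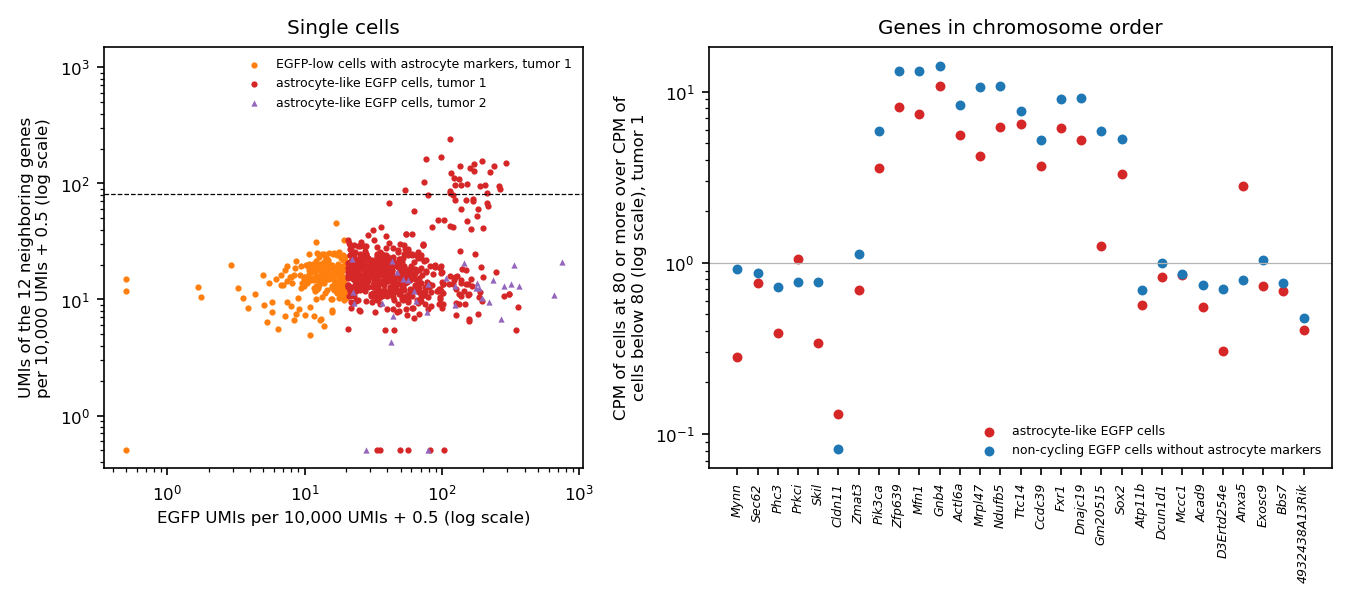
Left, EGFP (horizontal axis) against the summed UMIs of the 12 neighboring genes (vertical axis), both per 10000 UMIs plus 0.5 on log scales, for astrocyte-like EGFP cells of tumor 1 (red) and tumor 2 (purple) and EGFP-low cells with astrocyte markers of tumor 1 (orange), with a dashed line at 80. Right, ratio of CPM in cells at 80 or more to CPM in cells below (log scale) for genes in chromosome order, in astrocyte-like EGFP cells (red) and EGFP cells without astrocyte markers (blue) of tumor 1. The 26 cells above the line are all from tumor 1. The ratio is raised over a run of neighboring genes and falls off on both sides, with Anxa5 apart in the red points. The 12 genes themselves chose the cells, so their raised ratios follow in part from the choice.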

How the data were processed

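Single cells of the tumors were profiled with the 10x Single Cell 3′ kit, version 2 chemistry per the labels. The authors deposited raw UMI counts per gene and barcode for each library, with transgene sequences added to the mouse genome; the submitters' processing notes name Cell Ranger 4.0.0, Seurat, mm10 and GRCm38. The counts were used as deposited, with Python 3.11.15, numpy 2.4.6, scipy 1.17.1, pandas 2.3.3 and scanpy 1.11.5.

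Members and gene lists were chosen with earlier results of these data known. Lists came from textbook roles. UMIs were summed per tumor and cell class and tested with R 4.3.3 and edgeR 4.0.16 (TMM, filterByExpr, quasi-likelihood test, adjusted p under 0.05), with limma 3.58.1 as its base. The tumor was a block because all classes within 1 library share an animal; a tumor's deviations from the class means correlated between classes at 0.117 to 0.753 over the 10 pairs of classes in the fit with all other EGFP cells, and at 0.132 to 0.892 over the 28 pairs in the other fit. These fits held 10 and 16 sums with 4 and 7 residual degrees of freedom. The 15 genes of the rule stayed in the fits and out of the counts. Tumors are n = 2, so p-values rest on the spread between classes of 2 animals. The procedure was tested on simulated data. The simulated sums were drawn independently, with the means and spread of the fit. They therefore cannot show whether that spread holds for the few astrocyte-like EGFP cells of tumor 2.

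Named genes were the 12 with the largest rise and the 12 with the largest fall among those past the threshold, changed at least 2-fold, at 20 CPM or more in the higher class of both tumors and in the same direction in both, and up to 4 per list; other list genes are named after their values were seen. Scrublet called 0 and 1 doublets and thus did not work, so doublets were kept, and an alternative removed the highest 11.4% and 14.9% of scores, which took 63 and 0 of the astrocyte-like EGFP cells. Alternatives covered scaling, filters, DESeq2 1.42.0, the block, each tumor left out, the limits of the rule and a split of UMIs; the limit of 50 on EGFP was added after the data were seen. For chromosomes, 27645 of 27998 gene IDs matched the GENCODE annotation of GRCm38. No other samples or columns were used, and 1 gene of the lists is counted but not reported here by name. Intervals cover counting error only.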

Additional observations from a re-analysis of the deposited data

How the results depend on the processing

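Against all other EGFP cells, 762 genes passed, and the count was 1438 with no filter on low counts, 1690 with DESeq2, 2790 with the compared classes alone in the fit, 316 at EGFP of 50 or more and 0 without the tumor as a block. With a tumor left out it ranged from 1 to 42. Against non-cycling EGFP cells without astrocyte markers, 1324 genes passed, and the count was 2456 with DESeq2, 2496 with the compared classes alone, 609 at EGFP of 50 or more and 2 without the block, and 110 to 294 with a tumor left out. The block thus carries nearly all calls. Called genes kept their direction in every fit that tested them, except without tumor 1, where 760 of 761 and 1297 of 1322 did. Sox2 reversed without tumor 1, from 1.08 to -0.43 in the first comparison and from 1.15 to -0.53 in the second between the fits without tumor 2 and without tumor 1, and Trf from 1.92 to -0.18. The number of genes at 4-fold between astrocyte-like EGFP cells and EGFP-low cells with astrocyte markers rose from 5 to 16 at EGFP of 50 or more and to 42 at 100 or more. Unthinned, Slc1a2 was seen in 88.3% and 90.9% of cells. Pearson's r of the chromosome profile with cycling EGFP cells was 0.82 and 0.49 with EGFP-low C1q cells as reference, and 0.57 and 0.41 for genes at 100 CPM or more, in tumors 1 and 2. The cause of these moves was not tested.

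The limits of EGFP at 100 and of astrocyte markers at 20 left 17 and 9 cells in tumor 2, so neither comparison was fitted there. The comparison with EGFP-low cells with astrocyte markers has 6 cells in tumor 2, so the scaling, filter, test, block and left-out-tumor alternatives were not run for it. The 33 cells of tumor 2 limit every value of that tumor, and T cells show that EGFP of 20 or more also occurs in unlabeled lineages.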
